A study of Arabidopsis thaliana with 24 samples.

Results

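The genes described here are 49 nuclear genes of Arabidopsis thaliana seedlings whose RNA was higher in one of the study's time sets than in the other, by at least 1.2 on the log2 scale in both genotypes at 19 °C, and whose RNA moved by no more than 0.5 in either direction on chilling, in either genotype and either time set. A further condition was a mean of at least 5 over the 24 libraries. They were found among 17952 genes with values. The genes were chosen by these measured differences and levels, so the time difference and the near absence of a chilling difference are what chose the genes; both are described below and neither was tested in them.

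Wild-type Col-0 (WT) was compared with sig5-3 (SALK_141383C), a T-DNA insertion line in SIG5, a nuclear gene for a sigma factor that guides the plastid-encoded RNA polymerase to promoters. Seedlings of 11 days, grown in a 12 h photoperiod at 19 °C, were put in continuous light and kept at 19 °C or moved to 4 °C. Continuous light is given as 24 h for both sets. Their treatments began at different hours, so 24 h cannot directly precede both starts. In the ZT27 set the treatment began at Zeitgeber time 27 and lasted 5 h, and in the ZT45 set it began at Zeitgeber time 45 and lasted 3 h; Zeitgeber time counts hours on the plants' light schedule. The 8 groups were WT at 19 °C, sig5-3 at 19 °C, WT at 4 °C and sig5-3 at 4 °C in each set, with 3 samples of 10 pooled seedlings each, given as independent replicates. Both genotypes and both temperatures shared the continuous light, and one insertion line stood for the loss of SIG5. The labels give the start as time in continuous light, so starting hour, time spent in light, length of treatment and any handling particular to a set changed together, so their contributions to a difference between the sets cannot be told apart. The set names give the start of treatment, also for samples kept at 19 °C.

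In plants the circadian clock is built from transcription factors that repress one another in turn. CCA1 and LHY accumulate towards dawn and repress evening genes such as TOC1 and GI through short promoter sequences, and rhythms of RNA persist for days in continuous light. Counted from dawn in a day with 12 h of light, ZT27 falls in the subjective morning and ZT45 late in the subjective night. Those are starting hours. With treatments of 5 h and 3 h, the samples were taken later than the set names say. Cold changes RNA levels widely in leaves: CBF transcription factors induce COR genes through the C-repeat, and the clock gates that response.

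Reference genes placed the libraries on that background. The dawn gene LHY had 7.55 ± 1.48 (SD, n = 3) in WT at 19 °C in the ZT27 set and 303 ± 17.8 in the ZT45 set. GI, an evening gene, went the other way, from 82.1 ± 9.1 to 5.12 ± 0.254. The cold-induced gene RD29A was at 74.7 ± 3.68 at 19 °C and 3350 ± 80.4 at 4 °C in WT of the ZT27 set. SIG5 itself was at 9.15 ± 1.58 in WT and 1.3 ± 0.653 in sig5-3 at 19 °C in the ZT27 set, and at 46.1 ± 4.61 and 9.45 ± 0.863 in the ZT45 set. At 4 °C SIG5 was at 92.8 ± 3.66 in WT and 19.7 ± 3.25 in sig5-3 in the ZT27 set. In the ZT45 set it was at 142 ± 7.38 and 32 ± 5.61 at 4 °C. Its average difference over the 4 conditions was -2.26 on the log2 scale, so some SIG5 reads remained in the insertion line. These and all values below are normalized read abundances as the authors deposited them, scaled per library and not divided by gene length, so levels are compared between libraries and not between genes. Estimated reads per library, over genes with values, ran from 21274972 to 36440660. The lowest estimate for any of the 49 genes in any library was 54 reads, for TAS3. One library stood apart, sig5-3 at 4 °C in the ZT27 set, replicate 1, with a root mean square log2 deviation from its group mean of 0.263, where the other libraries ran from 0.0819 to 0.17.

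Of 375 genes higher at ZT45 by the same threshold in both genotypes, 49 (13.1%) moved by no more than 0.5 under all 4 chilling comparisons. In the mirror direction 24 of 212 genes higher at ZT27 did so (11.3%). Among all 13859 genes with a mean of at least 5, 9188 (66.3%) did. The other 326 genes higher at ZT45 were mostly higher on chilling too. In the ZT27 set 262 of them exceeded +0.5 in WT and 21 were below -0.5, with a median of 1.17; in sig5-3 the counts were 283 and 16, with a median of 1.29. In the ZT45 set 166 and 163 exceeded +0.5 in WT and sig5-3. The 326 were set apart by a chilling difference beyond 0.5, so the size of these differences follows in part from the split. The 19 °C values of the ZT27 set also enter both the time difference and the chilling difference of that set. Nothing is read from the contrast of the 326 with the 49. None of the 12 morning clock genes looked up was among the 49, and none of the 12 stayed within 0.5 on chilling: CCA1, which had 9.06 ± 1.8 in WT at 19 °C in the ZT27 set, had 113 ± 2 at 4 °C.

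The 49 genes differed between the sets at 19 °C by 1.21 to 3.43 in WT, with a median of 1.44, and by 1.25 to 3.52 in sig5-3, with a median of 1.58. The average over genotypes was at least 2 in 7 genes. At 4 °C, where the difference follows from the thresholds, it was 0.696 to 3.56 in WT with a median of 1.40 and 0.627 to 2.98 in sig5-3 with a median of 1.46. In the 326 other genes the medians were 1.65 and 1.83 at 19 °C and 1.11 and 1.06 at 4 °C. Chilling differences set these 326 apart, so nothing is read from their smaller medians at 4 °C. In 48 of the 49 genes all 12 libraries of the ZT45 set lay above all 12 of the ZT27 set, which held for 1192 of 17952 genes (6.64%); the thresholds all but fix this count, and nothing is read from it. The exception was AT5G03350, a legume lectin family gene named here because of its values. The same holds of the 49 of 49 genes that passed as higher at ZT45 at an adjusted p under 0.05 at 19 °C in WT (background 19.9% of genes) and in sig5-3 (22.1%), and of the 22 and 30 whose log2 difference also exceeded 1.5 (1.51% and 1.82%).

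**Figure D1:**
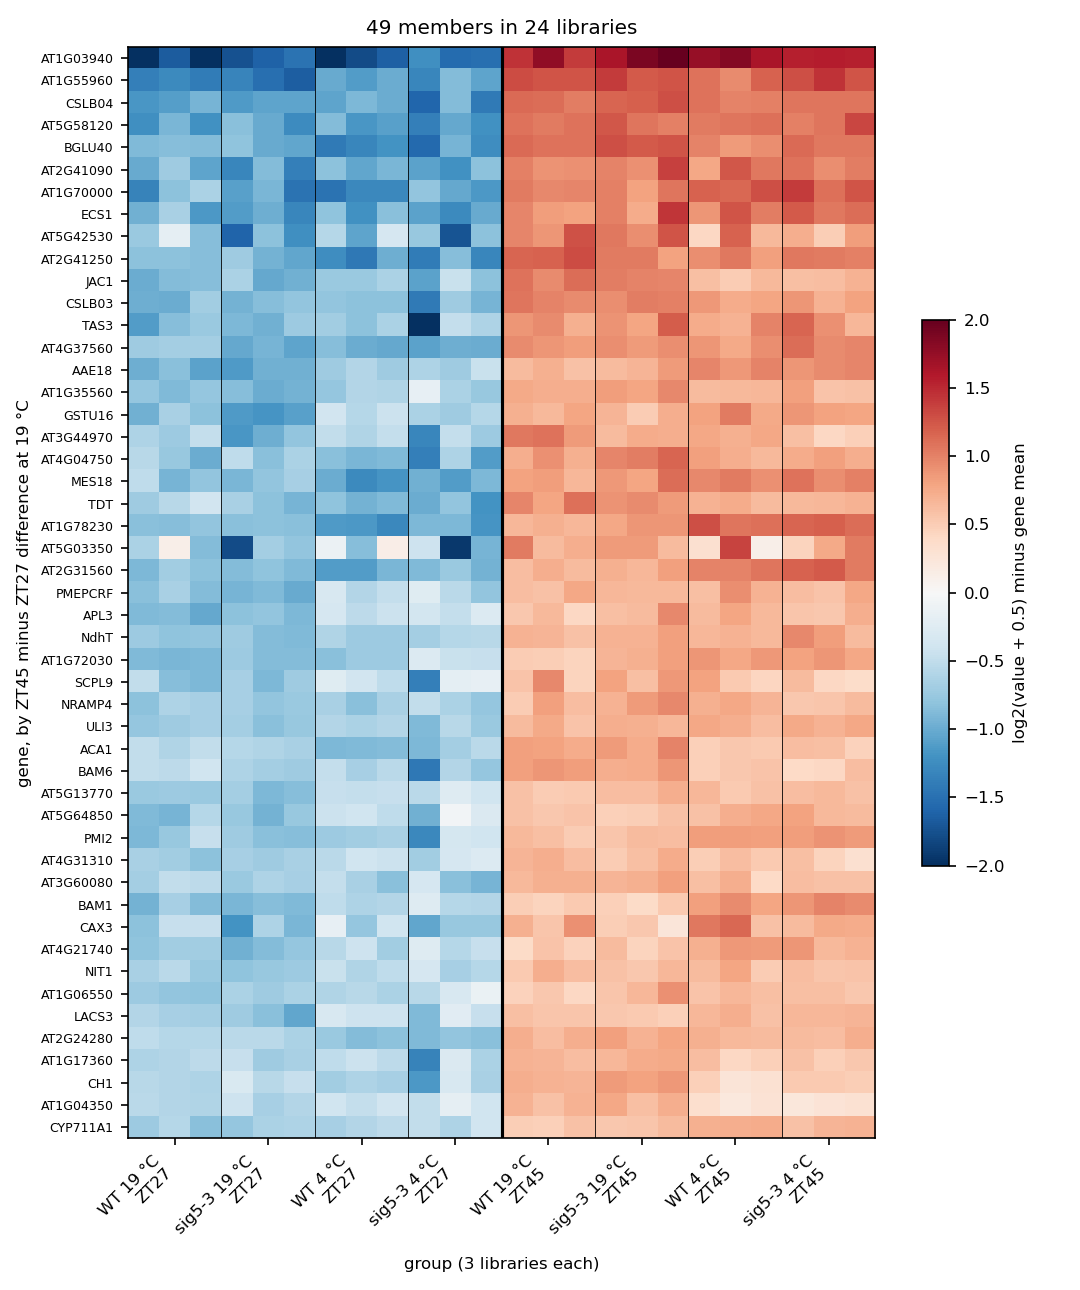
Heat map of the 49 genes (rows) in the 24 libraries (columns, by group), as log2(value + 0.5) minus the gene's mean over the libraries. In 48 genes every ZT45 library is above every ZT27 library, at both temperatures, and AT5G03350 is the gene in which the sets overlap.

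The chilling differences chosen to be small ran from -0.439 to 0.491 in WT and from -0.376 to 0.492 in sig5-3 in the ZT27 set, with medians of 0.0885 and 0.113. In the ZT45 set they ran from -0.465 to 0.478 in WT, with a median of 0.0201, and from -0.43 to 0.478 in sig5-3, with a median of -0.0385. Small is not zero: 20 of 49 genes passed at an adjusted p under 0.05 in WT of the ZT27 set (limma; 56.5% of all genes passed) and 21 in sig5-3 (60.0%), against 12 in WT (35.6%) and 10 in sig5-3 (35.3%) of the ZT45 set. Since the thresholds used these differences, the shares are given as they are. The standard error of a difference between 2 groups had a median of 0.102 in these genes. In 15 genes the 95% intervals of all 4 chilling differences lay within 0.5, and in 48 within 1.

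**Figure D2:**
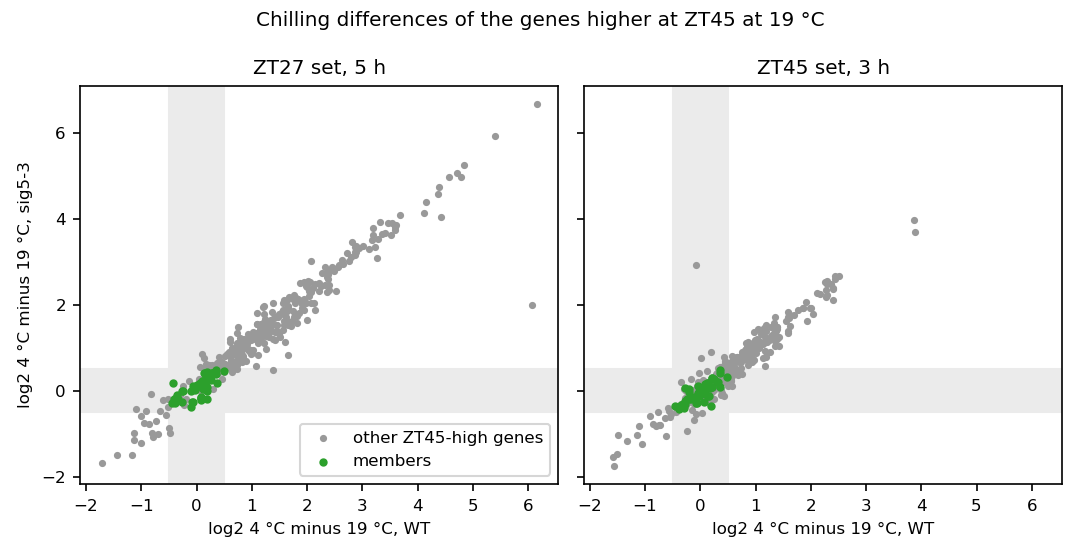
Chilling difference (4 °C minus 19 °C, log2) in WT (horizontal) and sig5-3 (vertical), each point 1 gene higher at ZT45, with the ZT27 set on the left and the ZT45 set on the right. The 49 genes (green) lie within the shaded bounds of 0.5 that chose them, and the other 326 (grey) have medians of 1.17 in WT and 1.29 in sig5-3 in the ZT27 set and of 0.518 and 0.504 in the ZT45 set. The same bounds set the 326 apart, so the contrast follows in part from them.

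Sequence upstream of these genes was examined because the clock and the cold act through short promoter motifs, and the genes share a time pattern. The window ran from 250 bases before to 50 after each annotated start (RefSeq, TAIR10.1), both strands were searched, and 17951 promoters of genes with values gave the background. The evening element AAAATATCT was in 0 of 49 windows, 1.84% of those of the 326 other ZT45-high genes and 3.08% of all windows. It was in 8.33% (2) of those of the 24 genes higher at ZT27 and moved as little by chilling. The CCA1-binding site AAAAATCT was in 5 of 49 (10.2%; all windows 8.18%), upstream or downstream of the starts of BGLU40, AT1G70000, AT1G72030, SCPL9 and CH1. The G-box CACGTG was in 5 of 49 (10.2%; all windows 8.85%), against 19.6% of the 326 other ZT45-high genes. The C-repeat core CCGAC was in 3 of 49 (6.12%), 14.1% of the 326, and 16.5% of all windows. The telo-box AAACCCT was in 0 of 49, 2.76% of the 326, 0 of the 24 and 9.5% of all windows. The morning element core CCACGAAA was in 0 of 49, 2.15% of the 326, 0 of the 24 and 0.88% of all windows. The HUD element CACATG was in 6 (12.2%; all windows 12.4%), the protein box ATGGGCC in 4 (8.16%; 10.7%) and the starch box AAGCCC in 5 (10.2%; 14.8%). Neither AAAATATCT nor AAAAATCT contains the other, and CACGTG reads the same on both strands. A match is only a match of letters, and its absence says nothing of a factor's binding.

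The 250 bases before the start of 3 genes are shown, 5′ to 3′ on the gene's strand, as examples of the matches. CH1 (chr1:16851272-16851521, minus strand) holds a pair of G-boxes, while BGLU40 (chr1:9177962-9178211, plus strand) and AT1G70000 (chr1:26364879-26365128, minus strand) hold the CCA1-binding site, read here from the opposite strand. Capitals mark the matches to these 2 motifs only; CH1 also holds a HUD element, left in lower case.
CH1: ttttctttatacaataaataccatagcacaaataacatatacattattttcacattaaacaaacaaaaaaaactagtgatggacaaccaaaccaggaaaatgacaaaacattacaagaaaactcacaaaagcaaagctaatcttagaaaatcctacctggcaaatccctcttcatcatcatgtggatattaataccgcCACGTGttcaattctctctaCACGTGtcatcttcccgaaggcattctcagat
BGLU40: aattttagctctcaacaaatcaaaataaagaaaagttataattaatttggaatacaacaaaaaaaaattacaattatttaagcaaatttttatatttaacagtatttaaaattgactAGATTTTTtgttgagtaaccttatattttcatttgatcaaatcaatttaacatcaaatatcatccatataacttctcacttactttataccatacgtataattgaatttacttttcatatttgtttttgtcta
AT1G70000: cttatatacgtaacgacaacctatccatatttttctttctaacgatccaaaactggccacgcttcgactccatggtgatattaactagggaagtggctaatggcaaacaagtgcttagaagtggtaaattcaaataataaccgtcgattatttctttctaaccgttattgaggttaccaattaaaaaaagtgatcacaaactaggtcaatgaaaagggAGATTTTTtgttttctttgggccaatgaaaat
The G-boxes of CH1 begin 52 and 32 bases before its start, and a CCA1-binding site lies in its window 30 bases after the start. In BGLU40 the site begins 133 bases before the start and in AT1G70000 32 bases before it.

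**Figure D3:**
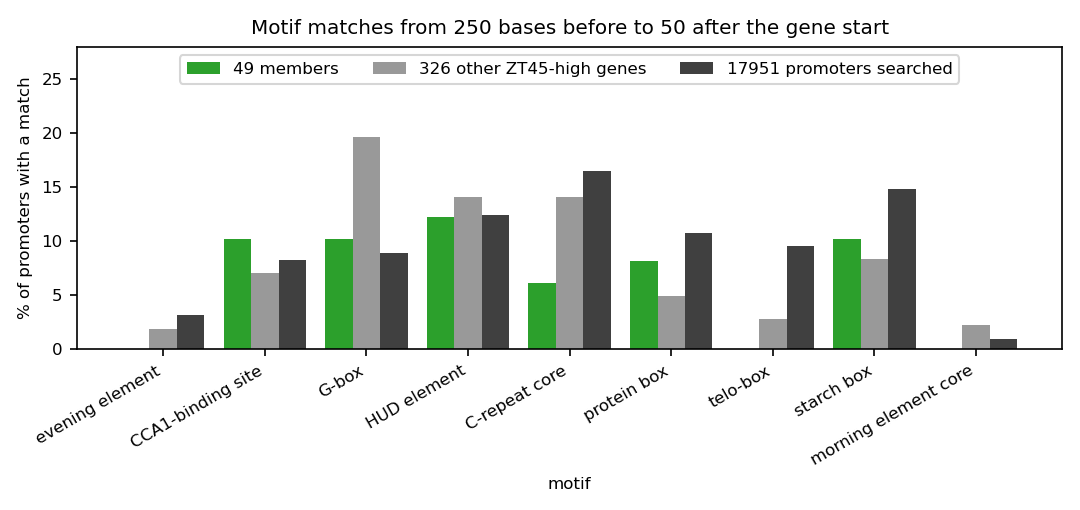
Share of promoter windows with at least 1 match to each of 9 motifs, in the 49 genes, the other 326 ZT45-high genes and all 17951 windows searched. The G-box is in 10.2% of the 49 and 19.6% of the 326. The evening element, the telo-box and the morning element core are in none of the 49 and in 1.84%, 2.76% and 2.15% of the 326.

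2 genes for chloroplast positioning were among the 49. Chloroplasts gather at or avoid illuminated cell faces along short actin filaments, under the blue-light receptors PHOT1 and PHOT2. JAC1 (AT1G75100, chr1:28190740-28194068) encodes a J-domain protein needed for the accumulation response. At 19 °C its values were 14.7, 16.1 and 16.3 in WT and 19, 14.4 and 15 in sig5-3 in the ZT27 set, and 63.7, 57.7 and 65.5 in WT and 60.8, 59.7 and 58.9 in sig5-3 in the ZT45 set. At 4 °C they were 17.6, 17.6 and 19 in WT and 14, 21.7 and 16.6 in sig5-3 in the ZT27 set, and 45.3, 42.6 and 47 in WT and 45.4, 46.1 and 48.7 in sig5-3 in the ZT45 set. Every ZT45 library was above every ZT27 library, and in the ZT45 set the chilled samples of both genotypes lay below the unchilled ones, by 0.47 on the log2 scale in WT and 0.35 in sig5-3, close to the bound. PMI2 (AT1G66840, chr1:24933777-24936512), which like JAC1 is needed for normal chloroplast movement, spanned 9.87 to 19.5 in the ZT27 set with a median of 15.0, and 35.7 to 46.9 in the ZT45 set with a median of 41.8. Its ZT45 values were higher at 4 °C, from 44.3 to 46.9, than at 19 °C, from 35.7 to 39.3, the opposite side from JAC1. A list of 10 chloroplast movement genes, drawn up after the values of JAC1 and PMI2 were seen, gave no other member. Of the other 8 genes on it, 5 passed as higher at ZT45 in WT at 19 °C (limma, 19.9% of all genes did) and 1, PHOT1, as lower (-0.65). The 5 were PMI1 at 0.89, KAC1 at 0.55, PHOT2 at 0.38, WEB1 at 0.27 and KAC2 at 0.17. CHUP1 at 0.19 and PMI15 at 0.01 did not pass. Since the list followed from members already seen, nothing is read from the count.

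Other plastid functions were represented by single genes. CH1 (AT1G44446, chr1:16848308-16851271) encodes chlorophyllide a oxygenase, which makes chlorophyll b. At 19 °C it had 90.8, 88.7 and 87 in WT and 109, 91.3 and 97.4 in sig5-3 in the ZT27 set, then 222, 218 and 215 in WT and 242, 234 and 245 in sig5-3 in the ZT45 set. The chilled libraries had 82.5, 87.1 and 84.4 in WT and 60.3, 107 and 85.5 in sig5-3 in the ZT27 set, then 186, 161 and 165 in WT and 194, 192 and 188 in sig5-3 in the ZT45 set. The sets did not overlap, and the lowest value, 60.3, came from the library that stood apart. NdhT (AT4G09350, chr4:5931110-5932475), a subunit of the chloroplast NADH dehydrogenase-like complex, ran from 14.1 to 17.8 in the ZT27 set and from 39.9 to 52.1 in the ZT45 set. AT5G13770, of the pentatricopeptide repeat family whose proteins act mostly on organelle RNA, ran from 38.1 to 60.0 and from 102 to 119. ACA1, an alpha carbonic anhydrase named here after its values were seen, ran from 20.1 to 26.8 and from 52.5 to 76.1. Mesophyll marker RNA differed between the sets as well: the summed level of 5 markers in WT at 19 °C was 24500 to 30200 in the ZT27 set and 37700 to 40300 in the ZT45 set. The 5 guard cell markers summed to 42.5 to 49.2 and 42.7 to 48.2, the 5 vascular markers to 251 to 283 and 242 to 254, and the 6 root markers with values, of 9, to 778 to 995 and 659 to 765. Markers of a list did not all go one way: LHCB3 differed by -0.13 where CA1 and RCA differed by 1.07, and SCR by 0.52 where PYK10, most of the root sum, differed by -0.36. Their part in the differences of the 49 genes was not tested, and in whole seedlings more cells of a type and more RNA per cell cannot be told apart.

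Starch genes made up 3 of the 49. Leaves store starch by day and break it down at night: ADP-glucose pyrophosphorylase opens synthesis, and beta-amylases release maltose from starch. APL3 (AT4G39210, chr4:18259547-18263468), a large subunit of the former, had 11.2, 11.4 and 10.1 in WT at 19 °C in the ZT27 set and 31.1, 33.5 and 28.3 in the ZT45 set. It lay closest to the chilling bound of the 3, at 0.49 in WT of the ZT27 set, where the chilled samples had 16.6, 14.6 and 15.5. BAM1 (AT3G23920, chr3:8641181-8644449), a plastid beta-amylase, had 28.7, 35 and 30.3 in WT and 29.4, 30.4 and 30 in sig5-3 at 19 °C in the ZT27 set. In the ZT45 set these were 78.4, 75.5 and 80.3 in WT and 77.6, 72.7 and 80 in sig5-3 at 19 °C, and 98, 108 and 96 in WT and 103, 111 and 108 in sig5-3 at 4 °C. All 6 chilled BAM1 samples of the ZT45 set lay above the 6 unchilled ones. BAM6 (AT2G32290, chr2:13714516-13717002), another beta-amylase gene, ran from 3.38 to 7.42 and from 13.3 to 18.9, and its chilled ZT45 samples, from 13.3 to 15.6, lay below the unchilled ones, from 16.8 to 18.9. Starch and carbohydrate words in the RefSeq description matched 6.12% of the 49, 3.07% of the other 326, 8.33% (2) of the 24 genes higher at ZT27 and moved as little by chilling, and 1.07% of all genes.

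Cell wall genes also numbered 3. CSLB03 and CSLB04 encode cellulose synthase-like proteins and lie side by side on the plus strand of chromosome 2 (chr2:13809019-13813572 and chr2:13814543-13818410), 970 bases apart, the only neighbouring pair among the 49. CSLB04 had 11, 11.5 and 13 in WT and 11.2, 11.9 and 11.9 in sig5-3 at 19 °C in the ZT27 set, and 55.5, 55 and 51.9 in WT and 57, 58.5 and 62.3 in sig5-3 in the ZT45 set. At 4 °C the same groups had 11.9, 13.2 and 12.4, then 8.07, 13.6 and 9.15, then 53.7, 50.4 and 51.3, then 53.2, 53.6 and 53.4. CSLB03 ran from 5.27 to 8.96 in the ZT27 set and from 24.3 to 31.8 in the ZT45 set. The transcripts of the pair are 88.9% identical over most of their length, so reads could in part have been shared between them. PMEPCRF (AT5G53370, chr5:21649532-21651713), a pectin methylesterase, ran from 19.2 to 33.0 and from 58.5 to 75.1. Cell wall words matched 6.12% of the 49, 1.84% of the 326, 12.5% (3) of the 24 genes higher at ZT27 and moved as little by chilling, and 1.76% of all genes.

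The steepest difference belonged to AT1G03940 (chr1:1009228-1011145), which encodes an HXXXD-type acyltransferase. In the ZT27 set it had 2.71, 3.58 and 2.73 in WT and 3.35, 3.71 and 4.11 in sig5-3 at 19 °C, and 2.63, 3.22 and 3.66 in WT and 4.98, 3.95 and 4.04 in sig5-3 at 4 °C. In the ZT45 set it had 34.5, 43.3 and 33.6 in WT and 39.4, 47.2 and 58.1 in sig5-3 at 19 °C, and 42.7, 45.4 and 39.4 in WT and 37.2, 37.7 and 37.1 in sig5-3 at 4 °C. The lowest ZT45 library, 33.6, was far above the highest ZT27 library, 4.98, and the log2 difference at 19 °C was 3.43 ± 0.13 (SE) in WT and 3.52 ± 0.13 in sig5-3. A related gene, AT1G03495, is 96.7% identical to it over 64.9% of the transcript and differed between the sets by 2.65 and 3.28; its chilling difference of -0.68 in sig5-3 of the ZT45 set kept it outside the 49, and reads may be divided between them.

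**Figure D4:**
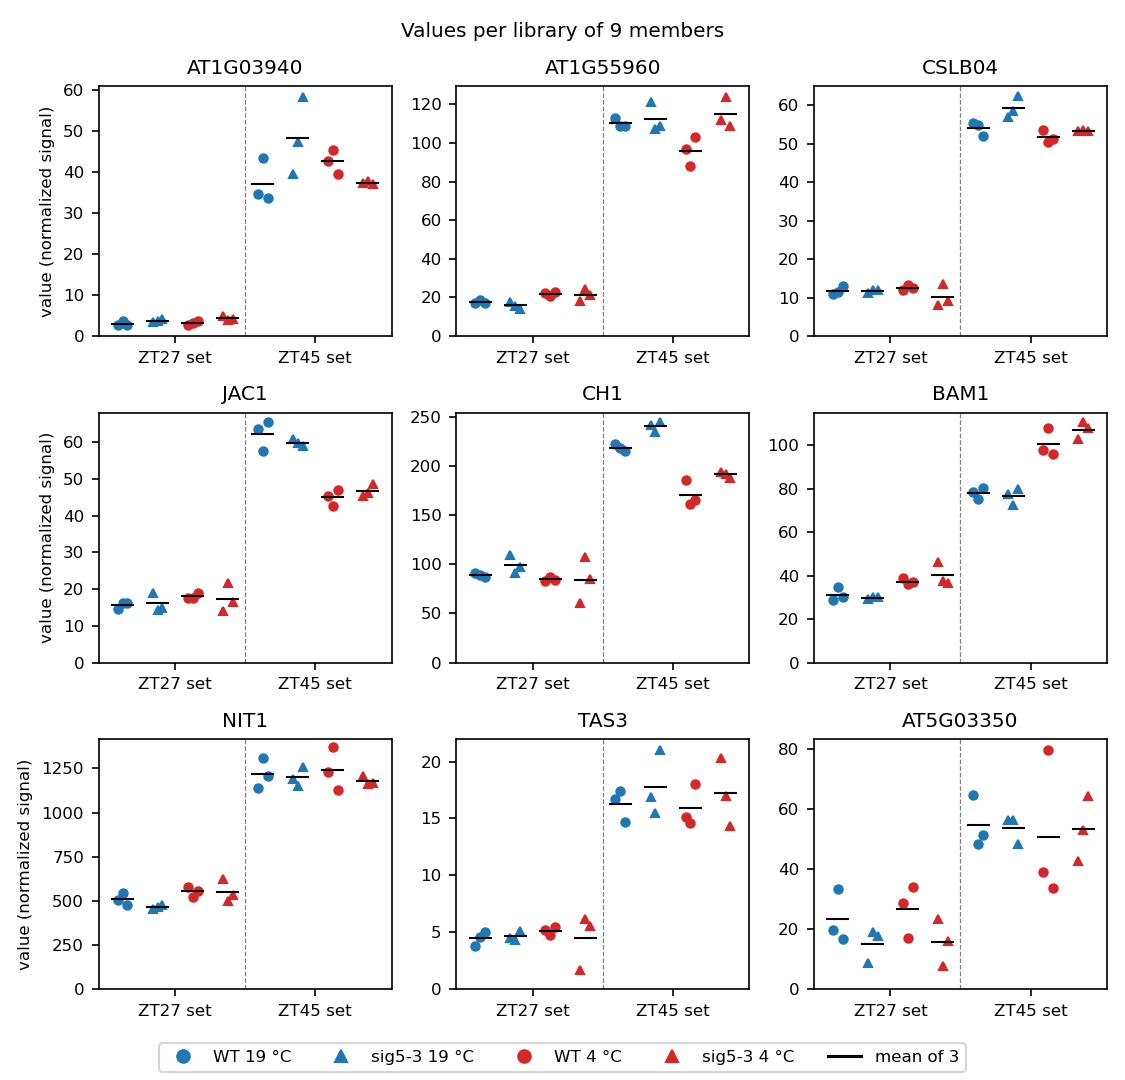
Normalized values per library of 9 of the genes by time set, temperature (colour) and genotype (symbol), on linear axes from 0, each point 1 library and each line the mean of 3. In AT1G03940 the ZT45 libraries run from 33.6 to 58.1 and the ZT27 libraries from 2.63 to 4.98, at both temperatures.

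Next in size was AT1G55960 (chr1:20927643-20930209), of the polyketide cyclase and lipid transport superfamily, which ran from 14.2 to 24.6 in the ZT27 set and from 87.8 to 124 in the ZT45 set. AAE18 and LACS3 belong to families that activate acids by ligation to coenzyme A, LACS3 to the long-chain acyl-CoA synthetases. AAE18 (chr1:20633096-20636892) ran from 8.46 to 13.9 and from 28.9 to 38.2, and its chilling differences were positive in all 4 comparisons, from 0.21 to 0.42. LACS3 (chr1:23915570-23919835) ran from 10.5 to 18.7 and from 30.8 to 36.9 and was one of the genes closest to the time threshold.

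Transporter words matched 2 of the 49 genes, TDT and CAX3 (4.08%, beside 3.8% of all genes). TDT (AT5G47560, chr5:19287369-19291103), the tonoplast dicarboxylate transporter that carries malate, had 43.1, 48.1 and 54.2 in WT and 44.9, 39.7 and 36.7 in sig5-3 at 19 °C in the ZT27 set. In the ZT45 set it had 140, 123 and 153 in WT and 132, 136 and 128 in sig5-3 at 19 °C, and 115, 118 and 110 in WT and 111, 112 and 115 in sig5-3 at 4 °C. The chilled ZT45 samples of TDT all lay below the unchilled ones, within the bound. CAX3 (AT3G51860, chr3:19239305-19242913), a vacuolar cation and proton exchanger, ran from 2.7 to 6.05 in the ZT27 set and from 8.16 to 15.7 in the ZT45 set. NRAMP4 (AT5G67330), a metal transporter that those words did not match and that is named after its values were seen, ran from 21.5 to 27.5 and from 55.7 to 76.0. The words also did not match AT4G04750, described as a major facilitator superfamily protein and likewise named after its values were seen. Both shares therefore depend on the words chosen.

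Gene regulation was represented by a few members, in shares near or below those of all genes. AT1G70000 (chr1:26362979-26364878), a MYB-like transcription factor, had 3.32, 4.97 and 5.72 in WT at 19 °C and 2.97, 3.45 and 3.44 at 4 °C in the ZT27 set. In the ZT45 set the WT values were 19.3, 18.3 and 18.5 at 19 °C and 21.4, 20.8 and 23.1 at 4 °C. AT1G35560 (chr1:13115824-13117235), a TCP family transcription factor, ran from 6.94 to 12.7 and from 21.6 to 28.2. Transcription factor words matched 4.08% of the 49 and 4.93% of all genes, and kinase and phosphatase words 2.04% and 6.97%. AT1G17360, described as a regulatory subunit-like protein of protein phosphatase 1, ran from 15.6 to 32.6 and from 53.6 to 68.2. The 1 noncoding member was TAS3 (AT3G17185, chr3:5861491-5862437), the precursor of small RNAs that target auxin response factors. TAS3 ran from 1.7 to 6.16 in the ZT27 set and from 14.3 to 21 in the ZT45 set, and its lowest value was again in the library that stood apart; 3 reads were worth 0.06877 to 0.1115.

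Further enzymes are described by gene, with no shared theme. CYP711A1 (AT2G26170, chr2:11140809-11143360), known as MAX1, is a cytochrome P450 of strigolactone synthesis and ran from 6.8 to 9.48 and from 17.7 to 21.5. NIT1 (AT3G44310, chr3:15986624-15989505), a nitrilase, had 505, 547 and 475 in WT and 452, 467 and 478 in sig5-3 at 19 °C in the ZT27 set, and 1140, 1310 and 1210 in WT and 1190, 1150 and 1260 in sig5-3 in the ZT45 set. Its relative NIT2, 91.4% identical over 51.4% of the transcript, differed between the sets by 0.11 in WT and -0.23 in sig5-3. BGLU40 (AT1G26560, chr1:9178212-9181967), a beta glucosidase, had 7.98, 8.16 and 7.99 in WT at 19 °C and 5.36, 5.79 and 6.28 at 4 °C in the ZT27 set, and 33.8, 32.7 and 32.4 at 19 °C and 30.4, 27.7 and 29.2 at 4 °C in the ZT45 set. The chilled WT samples of BGLU40 were thus below the unchilled ones in both sets. GSTU16 (chr1:21936278-21938001), a tau class glutathione S-transferase, ran from 7.91 to 14.1 and from 26.7 to 38.5, and SCPL9 (chr2:9798757-9802676), a serine carboxypeptidase-like protein, from 2.27 to 5.94 and from 8.75 to 13.5. SCPL10, 86.5% identical to SCPL9, also differed between the sets, by 3.04 and 3.15, but differed by 1.82 on chilling in WT of the ZT27 set.

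In 5 of the 8 groups 1 library was the highest or the lowest of its 3 in all of 4 genes. The genes were ECS1, the calcium-binding EF-hand gene AT2G41090, AT5G42530, which encodes an uncharacterized protein, and the lectin gene AT5G03350, grouped after their values were seen. How often this held in other sets of 4 genes was not counted, so nothing is read from it. AT5G03350 had 19.8, 33.5 and 16.7 in WT and 8.6, 19.1 and 17.8 in sig5-3 at 19 °C in the ZT27 set, and 28.7, 16.9 and 34.1 in WT and 23.2, 7.76 and 16 in sig5-3 at 4 °C. In the ZT45 set it had 64.5, 48.2 and 51.4 in WT and 56.2, 56.4 and 48.3 in sig5-3 at 19 °C, and 39, 79.6 and 33.8 in WT and 42.6, 53 and 64.3 in sig5-3 at 4 °C. The highest ZT27 library, 34.1, therefore exceeded the lowest ZT45 library, 33.8. At 19 °C in the ZT27 set the same library, replicate 2, was the highest of its 3 in all 4 genes, in WT and in sig5-3. Among the chilled samples of that set replicate 2 was the lowest in all 4 genes in both genotypes, and in chilled WT of the ZT45 set it was the highest in all 4. In the other 3 groups no library held all 4 extremes: in unchilled sig5-3 of the ZT45 set ECS1 had 398, 331 and 530 where AT5G03350 had its lowest value in replicate 3. AT2G41090 ran from 53.3 to 84.3 in the ZT27 set and from 237 to 359 in the ZT45 set, ECS1 from 79.7 to 126 and from 331 to 530, and AT5G42530 from 31.8 to 93.6 and from 141 to 256. The standard error of a log2 difference was 0.41 in AT5G03350 and 0.28 in AT5G42530, so their small chilling differences are known less closely than those of most of the 49.

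The library that stood apart showed in these genes too. In sig5-3 at 4 °C in the ZT27 set, replicate 1 was the lowest of its 3 libraries in 27 of 49 genes and more than 0.3 below the group mean in 12, and TAS3 was 1.02 below. In no other library were more than 3 genes that far below. Without it, 51 genes met the thresholds, 45 of them among the 49.

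Genotype was the one comparison that the thresholds did not use, since they set groups against each other only within a genotype. Averaged over the 4 conditions, 5 of the 49 genes passed at an adjusted p under 0.05 (limma, 17952 genes), 2 higher in sig5-3 (4.03% of all genes) and 3 lower (2.36%). The 5 are 10.2%, beside 6.39% of all genes, a share near that background, and 11 were at an unadjusted p under 0.05, as were 3933 of 17952 genes. The average differences ran from -0.326 to 0.213 with a median of -0.00919. In 47 of 49 genes the 95% interval lay within 0.5, and in 49 within 1. None of the 5 differences reached 0.5 in size. With 1 library left out the count of 5 ran from 2 to 9: it was 9 without replicate 2 of chilled sig5-3 in the ZT27 set, and 2 without replicate 3 of unchilled WT in the ZT45 set, replicate 1 of chilled WT in the ZT27 set or replicate 2 of chilled WT in the ZT45 set. It was 3 without replicate 3 of unchilled or replicate 2 of chilled sig5-3 in the ZT45 set, or without replicate 2 or 3 of unchilled or replicate 3 of chilled WT in the ZT27 set.

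AT1G72030 (chr1:27110832-27111932), an acyl-CoA N-acyltransferase family gene, was higher in sig5-3 by 0.17 ± 0.03 (SE; adjusted p = 0.00355, limma; higher in 3 of 4 conditions). In the ZT27 set it had 14.7, 14.3 and 14.6 in WT and 16.4, 14.9 and 14.8 in sig5-3 at 19 °C, and 15.2, 16.4 and 16.5 in WT and 22.6, 20 and 19.8 in sig5-3 at 4 °C. In the ZT45 set it had 39.5, 39.1 and 37.5 in WT and 44.6, 45.3 and 48.9 in sig5-3 at 19 °C, and 51.4, 47.2 and 50.9 in WT and 48.4, 51.3 and 47.4 in sig5-3 at 4 °C. All 3 sig5-3 samples were above all 3 WT samples in each condition except ZT45 at 4 °C. The share of all genes with such a separation was not counted, and nothing is read from it. AT1G06550 (chr1:2003627-2007212), of the Clp protease and crotonase family, was higher by 0.14 ± 0.04 (adjusted p = 0.0388, limma; higher in 3 of 4 conditions), but did not pass when any of 14 of the 24 libraries was left out (adjusted p up to 0.0782). AT1G72030 passed with each of the 24 left out.

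Lower in sig5-3 were AT3G44970, CAX3 and GSTU16. AT3G44970 (chr3:16432286-16435124), a cytochrome P450, differed by -0.31 ± 0.07 (adjusted p = 0.0114, limma; lower in 4 of 4 conditions). It had 23, 21.3 and 25.4 in WT and 15.6, 17.8 and 20.3 in sig5-3 at 19 °C, and 25, 23.2 and 25.3 in WT and 14.1, 25.4 and 21.2 in sig5-3 at 4 °C in the ZT27 set. The ZT45 values were 74.2, 76.2 and 64.5 in WT and 55.5, 59.7 and 58.8 in sig5-3 at 19 °C, and 60.8, 58.5 and 61.1 in WT and 54.3, 47.5 and 49.5 in sig5-3 at 4 °C. The genotypes overlapped only in the chilled ZT27 samples. CAX3 differed by -0.31 ± 0.08 (adjusted p = 0.0269, limma). At 19 °C CAX3 had 3.63, 4.79 and 4.83 in WT and 2.7, 4.24 and 3.38 in sig5-3 in the ZT27 set, and 11.4, 10.2 and 13.2 in WT and 9.76, 10.1 and 8.16 in sig5-3 in the ZT45 set; the genotypes overlapped in the ZT27 set and not in the ZT45 set. GSTU16 differed by -0.15 ± 0.04 (adjusted p = 0.0285, limma; lower in 4 of 4 conditions). With 1 library left out, AT3G44970 passed in 24 of 24 cases and CAX3 and GSTU16 each in 17, with adjusted p up to 0.061 and 0.0636. CH1 did not pass (0.1 ± 0.06, adjusted p = 0.319, limma), with an interval that included 0. It is named here after its values were seen. All 3 sig5-3 samples of CH1 were above all 3 WT samples in 3 of the 4 conditions. How often samples of the genotypes separated in this way over all genes was not counted. Nothing is read from it for CH1, AT3G44970 or CAX3.

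**Figure D5:**
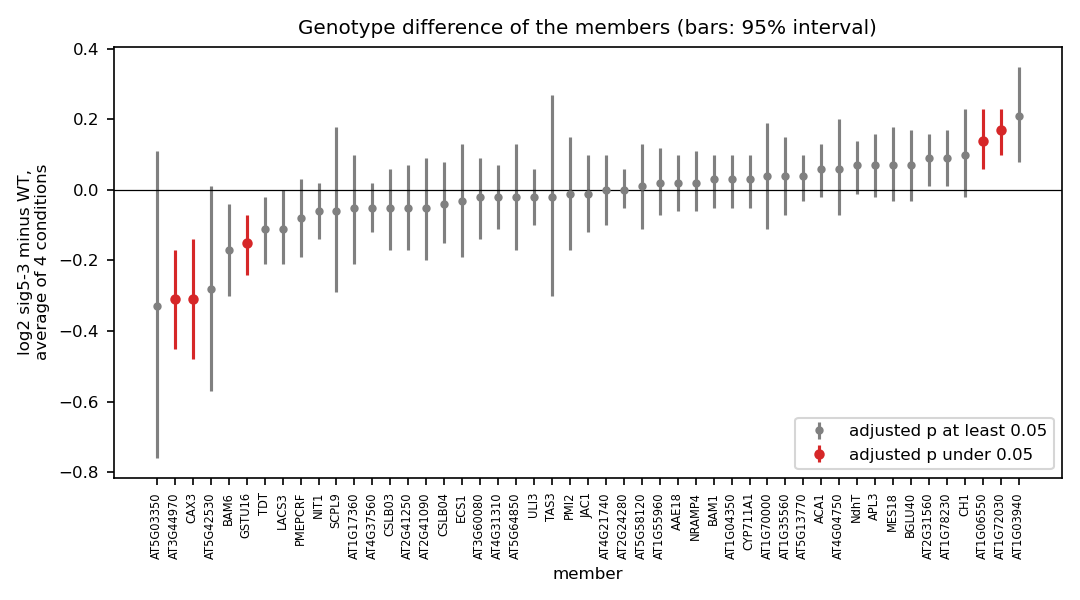
Difference between sig5-3 and WT (log2, average of the 4 conditions) of each of the 49 genes with its 95% interval, ordered by size. The 5 genes with an adjusted p under 0.05 are coloured, and they run from -0.31 for AT3G44970 and CAX3 to 0.17 for AT1G72030.

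Within single conditions fewer genes passed. In the chilled ZT27 samples AT1G72030 passed (0.36, adjusted p = 0.0066, limma), 1 of 49 beside 7.44% of all genes in either direction and 4.58% higher in sig5-3, and 12 of 49 were at an unadjusted p under 0.05, as were 4836 of 17952 genes. That count rested on single libraries: without replicate 1, 2 or 3 of that sig5-3 group it was 4, 9 or 3, without replicate 1 of the WT group 0, and without replicate 1 or 3 of unchilled sig5-3 in the ZT45 set 2 or 3. The fit used a single estimate of the spread for all 8 groups. Libraries of that sig5-3 group deviated from their mean by 0.263, 0.17 and 0.163, and those of other groups by at most 0.125. Standard errors in this condition may therefore be too small, for the 49 genes and for the background share. At 19 °C in the ZT45 set the count was 1 without replicate 1 of chilled sig5-3 in the ZT27 set. By limma 0 of the 49 passed at 19 °C in the ZT27 set (7 at an unadjusted p under 0.05, beside 1005 of 17952; 0.0111% of all genes passed), 0 at 19 °C in the ZT45 set (8, beside 1729; 0.039%) and 0 at 4 °C in the ZT45 set (2, beside 579; 0.0279%). For the difference between genotypes in the time difference at 19 °C, whose 2 terms the thresholds did use, limma passed 0 of 17952 genes (597 at an unadjusted p under 0.05).

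The 49 genes lay on all 5 chromosomes, with 17, 9, 7, 6 and 10 genes on chromosomes 1 to 5. Their transcripts had a median of 1938 bases, against 1788 over all genes with values. Of the 49, 48 are protein coding and 22 matched none of the functional keyword classes. AT5G58120, a disease resistance gene of the TIR-NBS-LRR class, ran from 3.09 to 4.7 in the ZT27 set and from 18.0 to 22.8 in the ZT45 set, and AT2G41250, a haloacid dehalogenase-like hydrolase gene, from 4.87 to 8.33 and from 24.9 to 35.2. The RING/U-box gene AT3G60080 ran from 7.21 to 11.1 and from 18.8 to 25.3. Of the genes with no values given in the text, AT1G04350, a 2-oxoglutarate-dependent oxygenase gene named as the lowest of all 49, had a ZT45 median 1.95 times its ZT27 median, and AT4G37560, an acetamidase gene named as the highest of them, 3.98 times.

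The thresholds cut through a continuum. AT4G21740 and LACS3 were just inside the time threshold, with a smaller difference of 1.208 and 1.21, and AT3G25590 and AT1G26218 just outside it, both at 1.183. For chilling, GSTU16 at 0.492 and APL3 at 0.491 were just inside and ZIP11 at 0.51 and AT3G24460 at 0.519 just outside. For the mean, SCPL9 at 7.466 and AT4G21740 at 7.47 were inside, and AT1G50180 at 4.678 and ABCB13 at 4.354 outside. An annotated gene on the opposite strand overlaps 15 of the 49, and in 11 of these cases it has values of its own. The libraries were stranded, but the sources used here do not say whether strand was used in counting, so some reads of such pairs may be shared. CH1, AT1G03940, AT1G72030, BAM6, PMEPCRF, CYP711A1, AT2G41090 and AT5G03350 are among the 15. The overlapping genes of CH1, AT1G03940 and AT2G41090 have no values. JAC1 overlaps a gene on its own strand. Another transcript at least 90% identical over at least 50% of the length was found for 4 genes, AT1G03940, NIT1, AT4G37560 and ULI3, so reads of these may have been divided with a copy.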

How the data were processed

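RNA of whole seedlings was sequenced in 24 libraries. Per the labels' protocols, libraries came from a stranded mRNA kit; the authors aligned reads with STAR, and Partek 6.6 was used, per the submitters' processing notes and the design text, which gives TAIR11 as genome. Read assignment and scaling are not given in the sources used. Each deposited value is a signal (normalized abundance of a gene's reads), with library totals of 790711 to 1092052. Among values under 30, 88.8% to 91.4% per library were whole multiples of a common step within 0.05 steps, so whole reads were not rebuilt, and read numbers are estimates from that step of 0.02292 to 0.03717 per read. Floors cover counting error only.

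Values were transformed to log2(value + 0.5), which understates changes of low genes, and limma 3.58.1 (in R 4.3.3) took the 24 libraries together with 8 group means, 16 residual degrees of freedom and trended, robust empirical Bayes moderation. P-values were Benjamini-Hochberg adjusted over 17952 genes with values, of 37336 listed; the other 19384 were not analysed here. The pass mark was an adjusted p below 0.05, and a gene was called when the log2 difference also exceeded 1.5, the design text's limit. Errors are SE for differences and SD (n = 3) for means, and intervals are 95%. The script was tested on simulated data. Tables and figures were made in Python 3.11.15 (pandas 2.3.3, numpy 2.4.6, matplotlib 3.10.9), and blastn 2.17.0 searched for similar transcripts. Names, coordinates and sequences come from RefSeq TAIR10.1, which matched all 17952 genes.

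The 49 genes and all lists were chosen with earlier results of these data known. Named genes are the 12 with the largest time difference, the 8 of highest mean, those passing the genotype test, up to 6 per keyword class and the 2 nearest each threshold, and others are named as chosen after their values were seen. Alternatives were other pseudocounts, filters, thresholds, scaling, moderation without trend, only the groups compared, a replicate block, and leaving out each library.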

Additional observations from a re-analysis of the deposited data

How the results depend on the processing

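The count of 49 genes followed its thresholds: 20 genes met a chilling bound of 0.3, 84 one of 0.7, and 22 a time difference of at least 1.5. With other pseudocounts, scaling by median-of-ratios size factors, other minimum means or a time difference of at least 1, it ran from 46 to 71. With 1 library left out it ran from 42 to 51, and 27 of the 49 genes were kept in all 24 cases. For sig5-3 against WT averaged over conditions, 1147 genes passed in all, 582 to 1730 with 1 library left out, 796 with a replicate block and 923 to 1160 under the other alternatives. Of the 49, 5 passed, 3 with the replicate block, 2 to 9 with 1 library left out and 4 to 6 otherwise. In single conditions, fitting only the groups compared gave 2 of the 49 in place of 0 at 19 °C in the ZT45 set and 0 in place of 1 at 4 °C in the ZT27 set, where testing only genes with a mean of at least 5 gave 2. With 1 library left out these counts ran from 0 to 1 and from 0 to 9, and the counts of 0 in the other conditions did not move. The causes were not tested. Genes called between the sets at 19 °C numbered 428 in WT (311 to 505 under all alternatives) and 503 in sig5-3 (364 to 594). Among the 5 genes passing the averaged genotype test, no difference changed direction under the alternatives run. The other results were counts, which have no direction. Whether replicate numbers pair the samples was not settled: deviations of same-numbered samples in a time set correlated at -0.32 to 0.284. Differently numbered samples were not compared as a reference, so the block shows only how the count moves. Under it AT1G06550 (adjusted p = 0.0618, limma) and GSTU16 (0.0551) no longer passed, and AT1G06550 also missed with size factors (0.0591) and without the trend (0.062). Low values limit depth: 3 reads were worth up to 0.1115.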

Other observations

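Of the genes higher at ZT45, 35 missed the chilling bound of 0.5 but stayed within 0.7, and a further 10 genes met both difference thresholds with a mean under 5. Of 12 morning clock genes, 6 were higher at ZT45 by 1.2 in both genotypes, and of 14 evening clock genes 9 were higher at ZT27. None of them was among the 49 genes, and 3 of the evening genes stayed within 0.5 on chilling. SIG1 and SIG5 of the 6 nuclear sigma factor genes were higher at ZT45. SIG5 differed by 3.29 on chilling in WT of the ZT27 set and by 1.61 in the ZT45 set, and it lay outside the 49 genes.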
